A study of Mus musculus with 5 samples.

Results

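The low-dose comparison set 1 array of mouse EWS/ATF1 sarcoma cells harvested 3 h after a low dose of doxycycline (EWS-ATF1_3h_lowDox) against 1 array of cells of the 3 h control group (EWS-ATF1_3h_control). These are 2 of the 5 arrays of the series. The others are a high dose at 3 h and, at 48 h, a control and a high dose, also with 1 array each. All 5 groups are labelled as tumour cells on a background that mixes C57/BL6, 129 and ICR. The lines were derived from soft tissue sarcomas that grew in mice after EWS/ATF1 was induced, and they carry the fusion under doxycycline control, the control arrays included. The doxycycline concentrations, whether control cultures received any of the drug, and which line gave which array do not appear in the sources used here. A difference between 2 arrays can therefore hold a difference between lines or cultures as well as one of dose.

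EWS/ATF1 joins the activation domain of EWS to the DNA-binding domain of ATF1, a leucine zipper protein of the CREB family, and drives clear cell sarcoma. CREB family proteins bind the cAMP response element (CRE) or its half-site in promoters, normally when cAMP or calcium signals phosphorylate them, and Fos, whose product pairs with Jun proteins to form AP-1, is among the best known of their targets. Fos and Egr1 are also early response genes of growth factor signalling through ERK and the serum response factor SRF, and Plaur encodes the receptor for urokinase, a protease that activates plasmin at the cell surface. The comparison asks which genes differ early at the lower level of induction.

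Promoters of genes that stood higher on the low-dose array, and of 1 that stood lower, show how different their start regions are. Each line gives the 250 bases before a start site in RefSeq (GRCm38.p6), 5′ to 3′ on the gene's strand. Capitals mark matches on either strand to the CRE half-site TGACG, which also lies in the full CRE TGACGTCA, to the AP-1 site TGANTCA, to the SRF-binding CArG box or to the interferon response core GAAANNGAAA. The Fos promoter (chr12:85473640-85473889, plus strand) is shown because Fos, with Egr1 and Plaur, was a response marker set for this comparison. That promoter holds half-sites whose last bases lie 125 and 62 bases before the start. Npas4 (chr19:4989972-4990221, minus strand), Maff (chr15:79347270-79347519, plus strand, 1 of its RefSeq starts) and Ptpru (chr4:131838279-131838528, minus strand) are shown for CRE or half-site matches. The last base of the full CRE lies 22 bases before the start in Maff and 34 in Ptpru. Plaur (chr7:24462233-24462482, plus strand) holds an AP-1 site that ends 63 bases before the start, Ccn1 (chr3:145649986-145650235, minus strand) a half-site that ends at 54, and Vcl (chr14:20929148-20929397, plus strand) a CArG box that ends at 218. Ifit3 (chr19:34583279-34583528, plus strand), the lower gene, holds interferon response cores that end at 147 and 113 and an AP-1 match that ends at 50.
Fos: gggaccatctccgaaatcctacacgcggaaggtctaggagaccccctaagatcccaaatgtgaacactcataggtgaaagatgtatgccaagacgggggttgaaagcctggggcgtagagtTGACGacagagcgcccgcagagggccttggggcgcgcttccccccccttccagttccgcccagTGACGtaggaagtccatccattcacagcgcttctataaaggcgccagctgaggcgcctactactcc
Npas4: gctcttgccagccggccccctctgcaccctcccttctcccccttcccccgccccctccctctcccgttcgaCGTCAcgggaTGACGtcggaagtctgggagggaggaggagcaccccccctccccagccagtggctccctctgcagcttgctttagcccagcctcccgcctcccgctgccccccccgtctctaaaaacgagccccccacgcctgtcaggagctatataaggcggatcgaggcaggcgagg
Maff: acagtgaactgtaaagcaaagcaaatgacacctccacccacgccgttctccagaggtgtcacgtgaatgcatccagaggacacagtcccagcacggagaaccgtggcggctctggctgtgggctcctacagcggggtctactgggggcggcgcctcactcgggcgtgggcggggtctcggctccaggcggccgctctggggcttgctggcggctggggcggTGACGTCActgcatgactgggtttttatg
Ptpru: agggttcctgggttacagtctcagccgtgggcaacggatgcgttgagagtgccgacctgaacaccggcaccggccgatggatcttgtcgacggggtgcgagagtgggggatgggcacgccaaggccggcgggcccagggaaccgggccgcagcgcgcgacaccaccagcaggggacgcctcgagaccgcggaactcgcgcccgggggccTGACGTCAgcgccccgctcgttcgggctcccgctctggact
Plaur: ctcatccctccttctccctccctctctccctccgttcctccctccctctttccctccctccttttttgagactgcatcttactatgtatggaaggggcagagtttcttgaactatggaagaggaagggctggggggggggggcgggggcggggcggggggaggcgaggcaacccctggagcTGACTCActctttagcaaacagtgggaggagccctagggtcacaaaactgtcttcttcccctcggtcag
Ccn1: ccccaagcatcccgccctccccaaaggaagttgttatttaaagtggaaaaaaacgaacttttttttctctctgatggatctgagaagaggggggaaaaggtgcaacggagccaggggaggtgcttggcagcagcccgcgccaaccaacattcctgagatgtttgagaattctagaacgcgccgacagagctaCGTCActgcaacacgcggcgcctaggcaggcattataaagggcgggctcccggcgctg
Vcl: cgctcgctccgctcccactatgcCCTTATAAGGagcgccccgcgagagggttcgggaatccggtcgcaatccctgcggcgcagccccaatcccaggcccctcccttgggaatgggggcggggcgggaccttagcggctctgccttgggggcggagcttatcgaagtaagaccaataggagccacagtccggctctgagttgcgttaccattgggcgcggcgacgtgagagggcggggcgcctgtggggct
Ifit3: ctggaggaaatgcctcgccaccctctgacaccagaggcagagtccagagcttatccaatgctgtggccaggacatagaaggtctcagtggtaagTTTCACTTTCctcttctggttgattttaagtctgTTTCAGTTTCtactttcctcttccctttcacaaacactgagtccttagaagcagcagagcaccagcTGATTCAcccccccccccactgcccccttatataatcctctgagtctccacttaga

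Signals are given as levels, the log2 of an array's background-subtracted signal minus that array's 75th percentile, so that 0 is the brightness of the 75th percentile. Differences are low dose minus control on this log2 scale. A gene was counted as measured where its probe was well above background on both arrays, and as higher or lower where the difference reached 1, which is 2-fold. With 1 array on each side there is no replicate check and no p-value. The scanner's own error model gave about 0.20 for the difference of a bright gene read by 1 spot and 0.07 for one read by 10 spots. For dim genes read by 1 spot it was larger, such as 0.29 for Hrh1 and 0.38 for Cdkn3. For probes repeated in 10 spots, the low-dose minus control difference was also taken spot by spot. Its SD between the spots of a probe had a median of 0.06 and a 95th percentile of 0.26 over 259 probes. These errors cover reading the arrays and leave out the spread between cultures. The 48 h control array served as a second reference, because a gene that stands out on the 3 h control array alone would appear in every comparison against it.

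Of 20018 named genes, 14061 (70.2%) were measured on both 3 h arrays. Their differences had a median of 0.01, and 91.8% lay within 0.5 of 0. In all 107 genes (0.761%) were higher and 82 (0.583%) were lower at 2-fold, together 189 or 1.34%. For scale, 2-fold differences between the 2 control arrays were counted for 542 of 14017 genes (3.87%). Against the 48 h control, 298 genes (2.08%) were higher and 470 (3.28%) lower of 14334 measured. In the same direction against both controls stood 57 higher genes (0.408%) and 30 lower genes (0.215%) of 13976 measured on all 3 arrays. These 87 genes are the ones described first, and they share the low-dose array, so a reading peculiar to that array would enter both differences. Among the 107 higher genes the sign was kept against the 48 h control for 95 and lost for 9, while 3 were below background there. Among the 82 lower genes it was kept for 58 and lost for 20, with 4 below background. The 57 higher genes had a median level of -0.87 on the 3 h control array and 0.89 at the low dose, and the 30 lower genes had -2.0 and -3.36. All measured genes had a median of 0.84 on the control array, so both sets lay toward the dim end there, the lower genes more so.

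**Figure D1:**
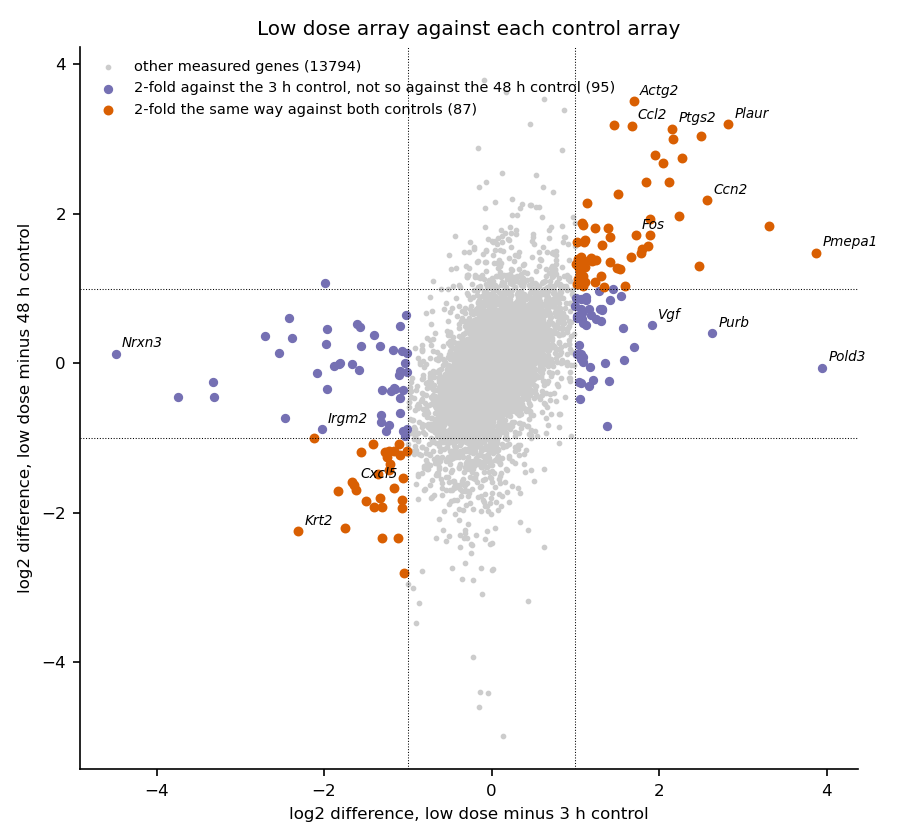
Each point is 1 of 13976 named genes measured on 3 arrays, placed by its log2 difference between the low-dose array and the 3 h control (x axis) and the 48 h control (y axis), with dotted lines at 2-fold. The 87 orange genes pass 2-fold the same way against both controls, and 95 purple genes, such as Nrxn3 and Pold3, pass only against the 3 h control or turn their sign.

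Genes with more than 1 probe allowed a check within the arrays. For 14 of the higher genes, 21 further measured probes had a median difference of 1.05. Of these, 19 pointed the same way and 11 reached 2-fold. A second Pmepa1 probe stood at 4.07, a second Skil probe at 1.62 and a second Vcl probe at 1.05. For 11 of the lower genes, 12 further probes had a median difference of -0.28, with 9 pointing the same way and 2 at 2-fold. In the set against both controls, 5 of 8 further probes of higher genes reached 2-fold, against 0 of 6 of lower genes. This difference between higher and lower genes rests on few probes and was not tested.

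Of the early response genes, Ccn1, described with the contractile genes, Egr1, Maff and Fos were at least 2-fold higher at the low dose. Fos had levels of -2.22 on the 3 h control array and -0.50 at the low dose, against 2.18 at the high dose, -2.22 on the 48 h control array and 2.86 at the 48 h high dose. The low dose lay above both controls, which were alike, and below both high-dose arrays. The difference was 1.72 (scanner error 0.07, from 10 spots), or 3.30-fold, and also 1.72 against the 48 h control. Egr1, a zinc finger transcription factor, had 0.02 in the 3 h control, 1.92 at the low dose, 3.44 at the high dose, 0.21 in the 48 h control and 2.15 at the 48 h high dose. Its difference was 1.90 (error 0.20), or 3.72-fold, and 1.71 against the 48 h control. Maff, a small Maf protein that pairs with other leucine zipper factors, had -1.18 in the 3 h control, 0.69 in low-dose cells, 0.54 in high-dose cells of 3 h, with -0.89 in the 48 h control. Its low dose and high dose levels thus differed by less than the scanner error. Egr2, a relative of Egr1, was not well above background on the 3 h control array and had a level of -1.58 at the low dose, at least 12.1-fold higher. It was 2.91 above its dim but measured level in the 48 h control. Fosl1, another Fos family gene, was at least 3.38-fold higher.

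These genes were few among the early response genes. Of 34 measured members of the list of early response and AP-1 genes, 4 were higher (Fos, Egr1, Maff and Ccn1) and 0 lower, against 0.761% and 0.583% of all measured genes. A further 2 were higher as bounds, and 29 differences were above 0. Its median was 0.27, beside 0.01 over all measured genes, and 0.27 against the 48 h control. The AP-1 genes Jun and Junb were at 0.51 and 0.22, and Fosb was at 0.02. Nr4a1 and Nr4a2, nuclear receptors induced by cAMP, were at 0.36 and -0.00, and Atf3, a stress-induced CREB relative, was at -0.40. Nr4a3, of the same family, was well above background at the low dose (-5.43) but not in the 3 h control, and lay too near the dim end for a fold.

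CREB target genes divided in the same way, with a few well above control and most near it. Of 34 measured members, 4 were higher (Fos, Npas4, Ptgs2 and Vgf) and 0 lower, beside 0.761% and 0.583% of all measured genes, with a median of 0.19 and 0.28 against the 48 h control. Npas4, a transcription factor known from its induction by activity in neurons, had 0.10 in the 3 h control, 2.22 at the low dose, 2.62 at the high dose, -0.21 in the 48 h control and -0.14 at the 48 h high dose. Both 3 h doxycycline arrays were thus above every other array, and the low dose difference was 2.12 (error 0.20), or 4.34-fold. Vgf, which encodes a secreted neuropeptide precursor, stood at 1.92 against the 3 h control but at 0.51 against the 48 h control, whose level of 2.42 lay near the 2.94 of the low dose. Areg, an EGF receptor ligand with a CREB-responsive promoter, was at 0.73, and its level of -1.58 at the low dose compares with 0.28 at the 3 h and 4.37 at the 48 h high dose. The genes of the fusion partners themselves, Ewsr1 and Atf1, differed by -0.08 and 0.08. Probe sequences were not analysed here, so these values do not check the induction of the fusion.

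The ERK pathway list leaned upward with small differences. It holds genes that the pathway induces, many of them its own inhibitors. Of 29 measured members, 23 were above 0 and the median was 0.45, with 0.43 against the 48 h control. Only Vgf and the MAP kinase phosphatase gene Dusp4 (1.02) passed 2-fold against the 3 h control, 0 were lower, and neither passed against the 48 h control. Of all measured genes, 0.761% were higher and 0.583% lower than the 3 h control. The phosphatase gene Dusp6 was at 0.90, the ETS factor gene Etv4 at 0.84 and the feedback inhibitor gene Spry1 at 0.70. Of the EGF family, Ereg, which encodes epiregulin, was at 2.24 (4.73-fold) and Epgn at 1.02, with 0 of 15 measured members lower and a median of 0.09. Ereg was at -3.86 in the 3 h control, -1.62 at the low dose, -1.28 at the high dose and -3.59 in the 48 h control, so all doxycycline arrays lay above both controls, including the 48 h high dose at -1.07. Hbegf, a further ligand, was at 0.89.

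**Figure D2:**
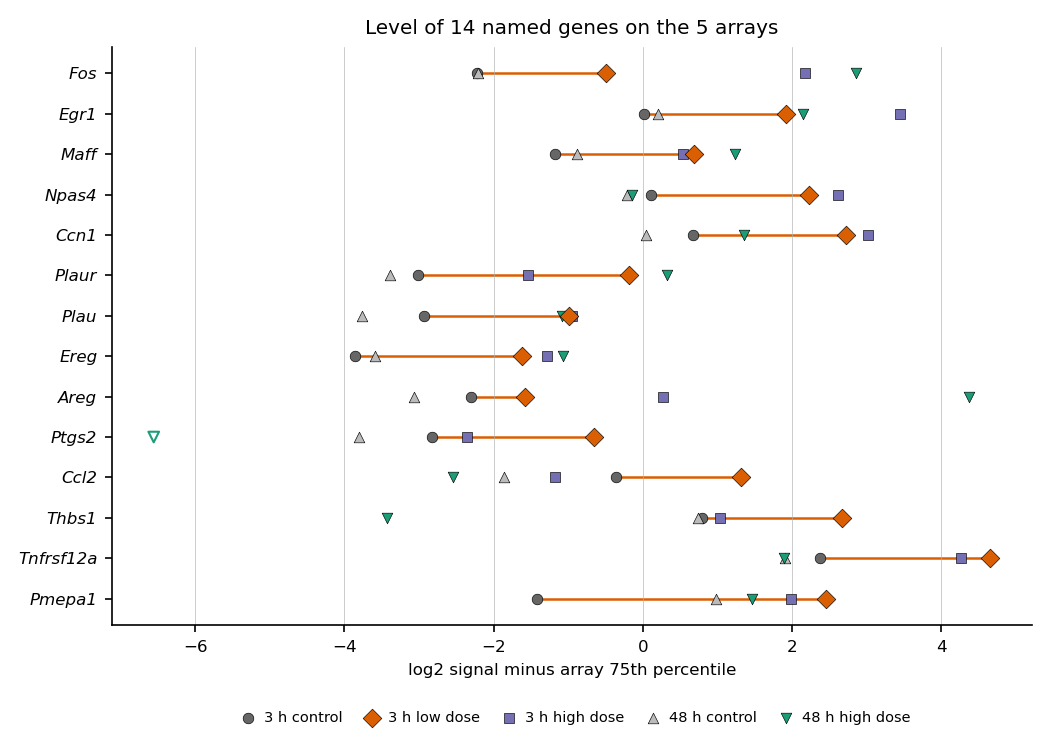
Each row is 1 gene and each symbol its level on 1 of the 5 arrays (x axis, log2 signal minus the array's 75th percentile), with a line from the 3 h control to the 3 h low dose and open symbols where the probe was not well above background. Levels compare within a row only, and the low dose (diamond) lies right of both controls in all 14 rows. All but Areg are genes already called 2-fold higher than both controls, so for them this position follows from that call. For Pmepa1 the low dose lies 3.88 from the 3 h control and 1.48 from the 48 h control.

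Genes of the urokinase system were among the highest, and at 3 h the low dose matched or exceeded the high dose. Plaur had -3.02 in the 3 h control, -0.19 at the low dose, -1.54 at the high dose, -3.39 in the 48 h control and 0.32 at the 48 h high dose. The low dose was above the 3 h high dose, and it exceeded the 3 h control by 2.83 (error 0.22), or 7.10-fold, with 3.20 against the 48 h control. Plau, urokinase itself, had -2.94, -0.99, -0.94, -3.77 and -1.08 on the arrays in that order, and the 3 doxycycline arrays were close together. The rest of the list, mostly other serpins and metalloproteinases, did not share this. Plaur and Plau were the 2 of 23 measured members that were higher, 0 were lower and the median was -0.01. Of all measured genes, 0.761% were higher and 0.583% lower. Of 23 integrins and other adhesion receptors 0 reached 2-fold, the median was 0.17, and Itgb3 was largest at 0.89.

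Actin cytoskeleton and contractile genes formed the list with the largest median, 0.72, against 0.01 over all measured genes. Many of them are targets of SRF and its actin-sensing coactivators, the MRTF proteins, and encode actins, actin-binding proteins and matricellular proteins. Of 24 measured members, 6 were higher, 0 were lower and 23 were above 0, where 0.761% of all measured genes were higher and 0.583% lower. Ccn2 and Ccn1, secreted proteins that bind integrins, led together with the calponin gene Cnn1. Ccn2 had 2.84 in the 3 h control, 5.42 at the low dose, 4.68 at the high dose, 3.23 in the 48 h control and 4.36 at the 48 h high dose, a difference of 2.57 (5.96-fold). Ccn1 had 0.67, 2.73, 3.02, 0.04 and 1.35 in that order, or 4.14-fold at the low dose. For both genes every doxycycline array was above both controls.

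The smooth muscle genes Tagln, Cnn1, Actg2 and Acta2 were highest on the low-dose array, as was Ccn2 but not Ccn1. Tagln, which encodes the actin-binding protein transgelin, had 1.70 in the 3 h control, 3.16 at the low dose, 1.62 at the high dose, -0.03 in the 48 h control and 0.40 at the 48 h high dose. The high dose thus matched the 3 h control while the low dose stood 1.47 above it. Cnn1 had -3.52, -1.07 and -2.43 on the 3 h arrays in order of dose, a difference of 2.45, and was not well above background in the 48 h control. Actg2, smooth muscle gamma actin, was at 1.70, and Acta2, smooth muscle alpha actin, at 0.86 (error 0.06, levels 0.34 and 1.2), with -0.47 at the high dose. Acta1, skeletal alpha actin, was listed among muscle markers and stood at 1.81, while Myod1, Myog and Des were not well above background on either array. Differences against the 48 h control were larger, 3.19 for Tagln and 3.39 for Acta2, since that array was low in these genes.

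Widely expressed cytoskeletal genes had smaller differences in the same direction. The focal adhesion gene Vcl had 1.45 in the 3 h control, 2.68 at the low dose, 2.80 at the high dose and 1.59 in the 48 h control, a difference of 1.23, and its second probe gave 1.05. Zyx, for another focal adhesion protein, was at 0.89, Actn1 at 0.83, Actg1 at 0.59 and Actb at 0.40. Srf itself was at 0.82. With the 48 h control as reference 11 of 23 measured members were higher and 0 lower, against 2.08% and 3.28% of all genes measured there. The list median was then 0.95. The median lay above 0 under each alternative scaling.

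**Figure D3:**
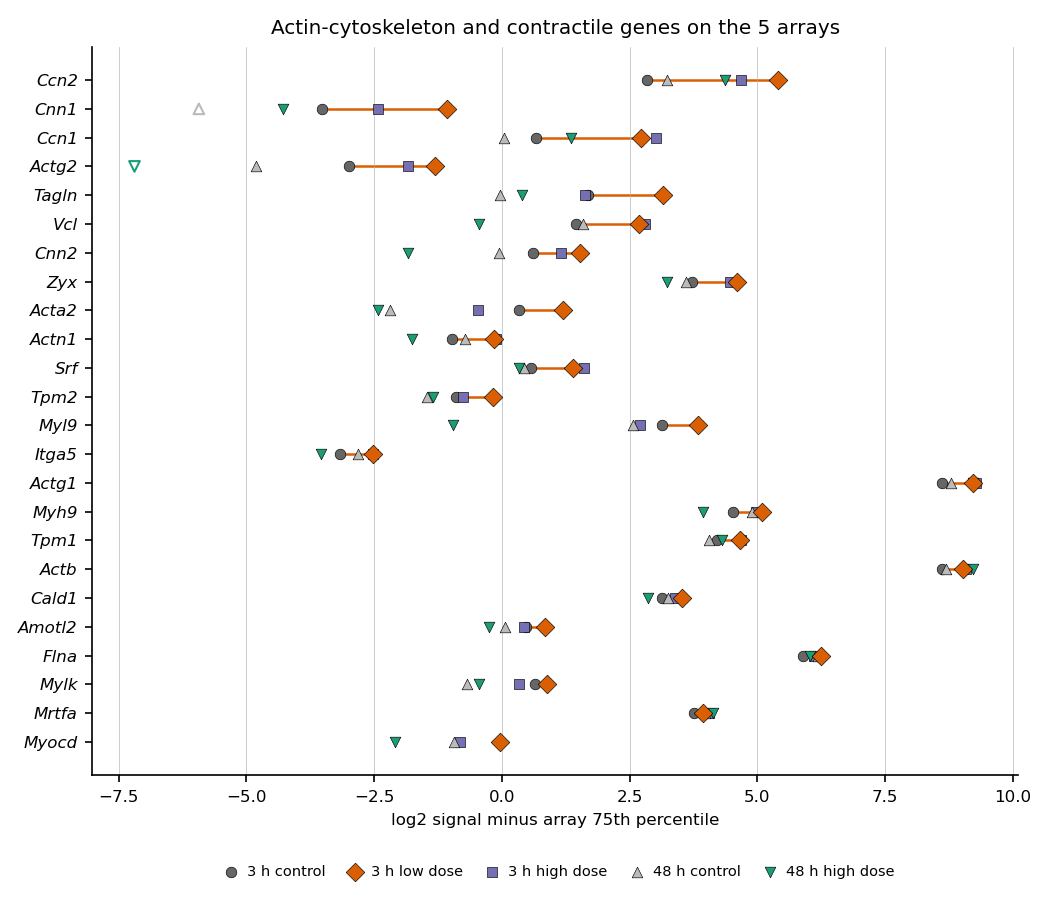
The 24 measured genes of the actin cytoskeleton and contractile list, ordered by their difference, with levels on the 5 arrays (x axis, log2 signal minus the array's 75th percentile) and a line from the 3 h control to the 3 h low dose. Open symbols mark probes not well above background. The low dose lies right of the 3 h control in 23 rows, and for Tagln and Acta2 also right of the 3 h high dose.

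Targets of TGF-beta signalling had the next largest median, 0.46. The pathway acts through SMAD proteins and induces its own inhibitors along with matrix genes. Of 26 measured members, 4 were higher and 0 lower (0.761% and 0.583% over all measured genes), and 22 were above 0. Pmepa1, a transmembrane inhibitor of SMAD signalling, had -1.42 in the 3 h control, 2.46 at the low dose, 1.98 at the high dose, 0.98 in the 48 h control and 1.47 at the 48 h high dose. At 3.88 (14.7-fold) it had the largest difference among genes higher than both controls, but the control arrays differed by 2.40, and against the 48 h control it was 1.48 (2.79-fold). Skil, a SMAD corepressor, was at 1.56 and at 0.47 in the same pair of references. Tgfb3, one of the ligands, was at 1.06 (error 0.07) and 1.42. Smad7 and Smad6, the inhibitory SMADs, were at 0.67 and 0.63. Id1, Id2 and Id3, classic targets of BMP signalling, were at 0.15, 0.04 and 0.08. With the 48 h control as reference the list median was lower, 0.22. Ccn2 belongs to this list as well as to the contractile list, so the list medians are not independent of each other.

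Inflammatory and matrix genes contributed single members. Ptgs2, cyclooxygenase 2 of prostaglandin synthesis, had -2.82 in the 3 h control, -0.66 at the low dose, -2.36 at the high dose and -3.80 in the 48 h control, and was not well above background at the 48 h high dose. The low dose was the highest array and the high dose lay nearer the control, with a low-dose difference of 2.16 (error 0.07, from 10 spots). Ccl2, which attracts monocytes, had -0.36, 1.31, -1.18, -1.87 and -2.55 over the arrays in the usual order, again with the low dose on top (difference 1.67, error 0.06). Cxcl5, a neutrophil chemokine, went the other way at -1.64, and its level was lower still at the 3 h high dose (-5.10 against -3.95). Tslp and Il1rl1, a cytokine and the interleukin-33 receptor, were at 1.41 and 1.31 and highest at the 48 h high dose. The cytokine list had 4 of 24 measured members higher and 0 lower (median 0.11), and the chemokine list 1 of 14 in each direction. Of all measured genes, 0.761% were higher and 0.583% lower.

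Among 30 measured matrix genes, 4 were higher and 0 lower, against 0.761% and 0.583% of all measured genes, with a median of 0.23. Thbs1, thrombospondin 1, had 0.79 in the 3 h control, 2.67 at the low dose, 1.04 at the high dose, 0.74 in the 48 h control and -3.42 at the 48 h high dose. Only the low dose stood apart upward. Col4a1 of basement membranes was at 1.10 (error 0.06), Has2, a hyaluronan synthase, at 1.09 and Fbln2, a matrix glycoprotein, at 1.03. The fibrillar collagen genes Col1a1 and Col3a1 were at 0.36 and -0.10.

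**Figure D4:**
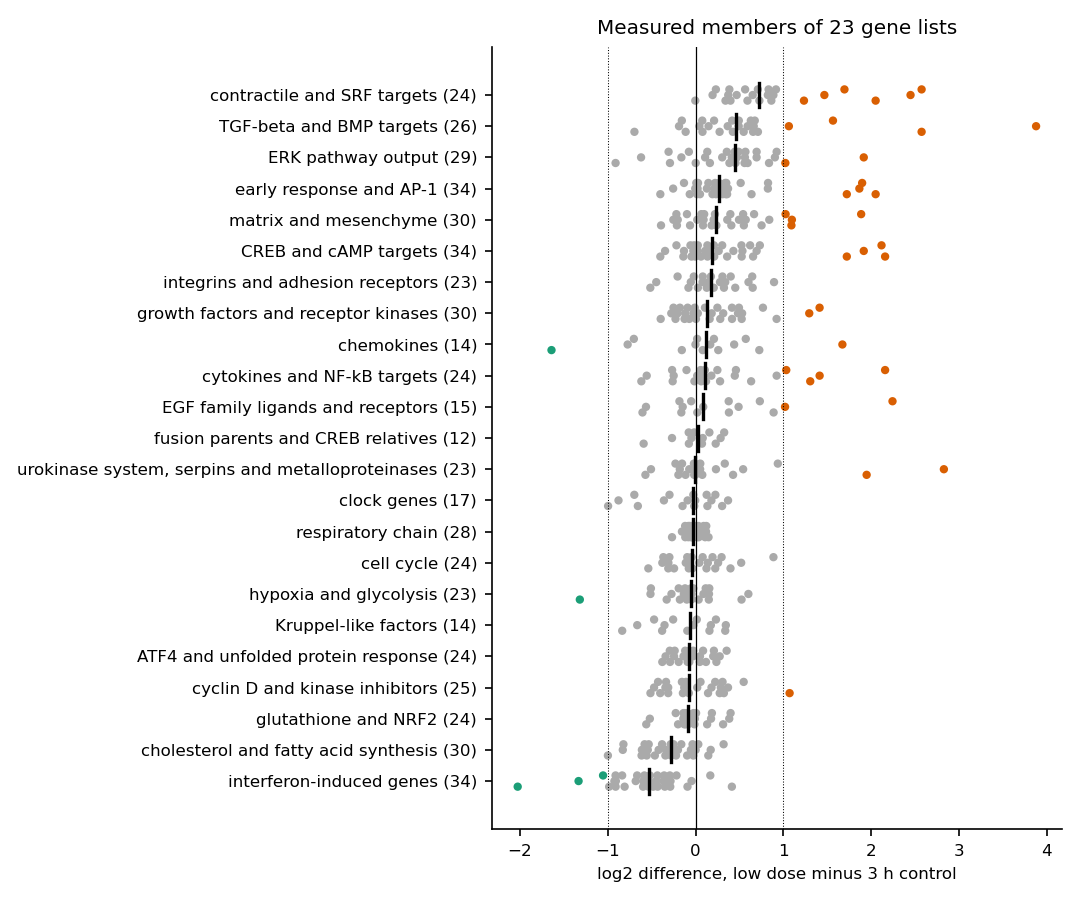
Each row is 1 of 23 gene lists with its number of measured members, each point a member's log2 difference between the low dose and the 3 h control, and each black bar the list median. Orange points are at least 2-fold higher and green points at least 2-fold lower, and the medians run from -0.53 for interferon-induced genes to 0.72 for contractile genes.

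The remaining genes high in the ranking against both controls came from no single list. Tnfrsf12a, a TNF receptor family member, had 2.38 in the 3 h control, 4.66 at the low dose, 4.26 at the high dose, 1.91 in the 48 h control and 1.89 at the 48 h high dose, or 4.84-fold. Both 3 h doxycycline arrays were high, and the 48 h high dose was back at the level of its control. Bcl2l14, a Bcl2 relative, was at 2.5 (second probe 1.22), Ptpru, a receptor tyrosine phosphatase, at 2.47 and Cenpa, the centromeric histone H3 variant, at 2.16. Cenpa was not accompanied by other cell division genes, with 0 of 24 measured cell cycle genes at 2-fold and a median of -0.04. Beside 0.761% and 0.583% of all measured genes, 2 of 30 measured growth factors and receptor kinases were higher and 0 lower (median 0.13). These were Ret at 1.41 and Fgf7 at 1.29, neither at 2-fold against the 48 h control. Chosen after their values were seen, the tendon factor gene Scx was at 1.53 and the kinase anchor gene Akap5 at 1.51. The Notch target gene Hey1, chosen likewise, was at 1.09 and Ets1 at 1.01. Each of Scx, Akap5, Hey1 and Ets1 was 2-fold higher than both controls. Ets1 was dim, at -4.38 in the 3 h control and -3.37 at the low dose (error 0.28). Its other probe was not well above background on both arrays.

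Most interferon-induced genes had differences below 0, and few reached 2-fold. They encode antiviral and antigen-processing proteins and are held up in unstimulated cells by low-level interferon signalling through STAT and IRF factors. Of 34 measured members, 3 were lower and 0 higher, against 0.583% and 0.761% of all measured genes, and 2 (Oasl1 and Usp18) were above 0. The median was -0.53, beside 0.01 over all measured genes, with -0.47 when the 48 h control was the reference. Irgm2, a GTPase induced by interferon gamma, had 2.89 in the 3 h control, 0.86 at the low dose, 0.41 at the high dose, 1.75 in the 48 h control and 2.10 at the 48 h high dose. Both 3 h doxycycline arrays lay below the other arrays, and the low dose difference was -2.03 (error 0.20), 4.07-fold lower, or -0.88 against the 48 h control. Iigp1, of the same GTPase family, was at -1.33 and at 0.23 against the 48 h control, so its direction was lost. Ifit3, an antiviral protein, had 1.96, 0.90, 0.33, 2.44 and -4.77 over the arrays in the usual order, and its -1.05 became -1.54 against the 48 h control. Of the list's members Ifit3 alone passed 2-fold against both. The transcription factor genes Stat2, Irf9 and Irf1 were at -0.98, -0.68 and -0.60.

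**Figure D5:**
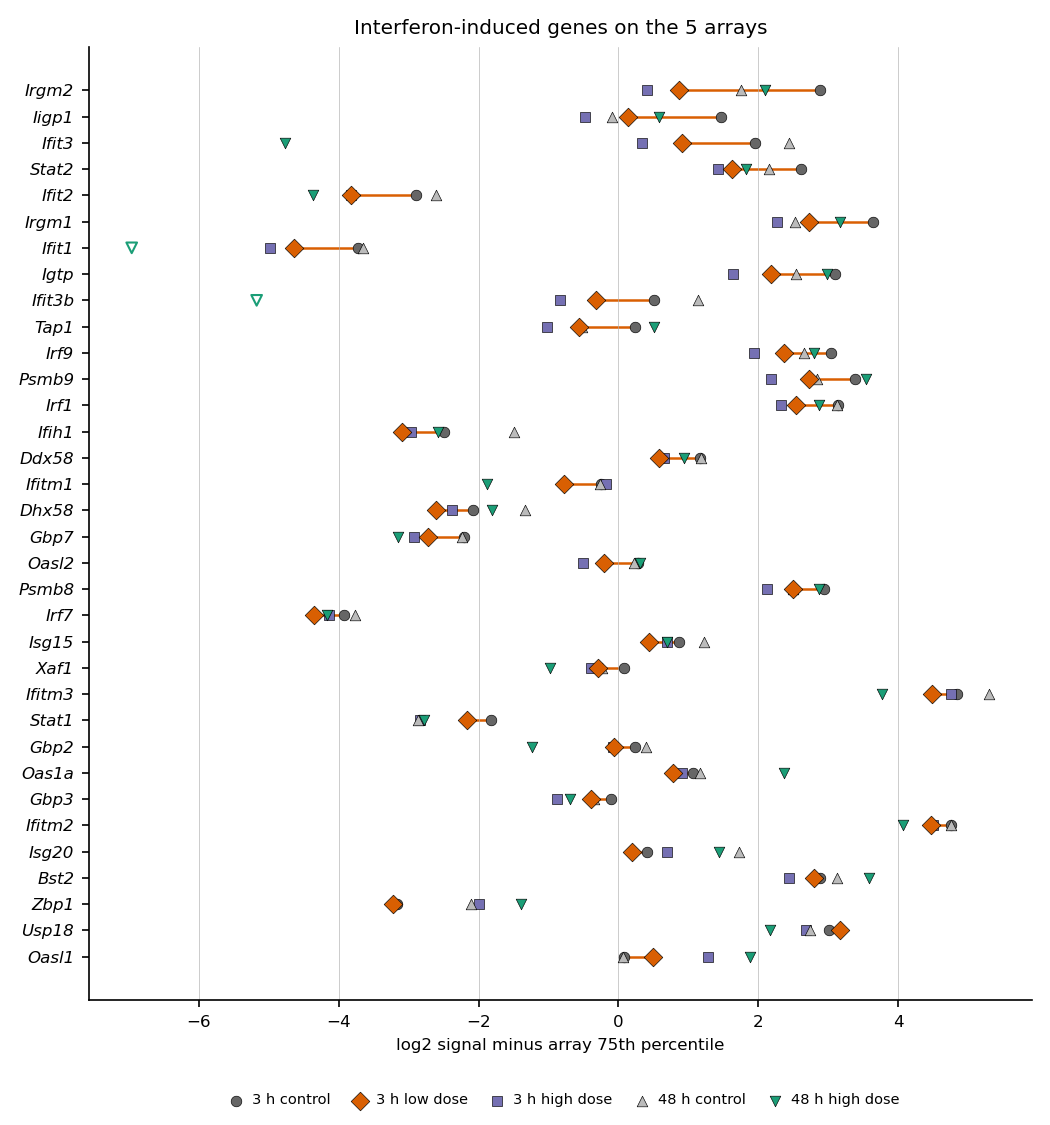
The 34 measured interferon-induced genes, lowest difference first, with levels on the 5 arrays (x axis, log2 signal minus the array's 75th percentile), a line from the 3 h control to the 3 h low dose and open symbols for probes not well above background. The low dose lies left of the 3 h control in all rows but the last 2, Usp18 and Oasl1.

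Macrophage markers differed among the arrays of the series, and by less than 2-fold between the 2 compared here. Of 15 macrophage markers, 11 were measured, 0 reached 2-fold, 10 were below 0 and the median was -0.14, with 2 not well above background on either array. Over all measured genes 0.761% were higher and 0.583% lower. The summed level of the markers was 3.27 in the 3 h control and 3.17 at the low dose, against 2.95 at the 3 h high dose, 3.21 in the 48 h control and 5.66 at the 48 h high dose. Ctss, a lysosomal protease of antigen-presenting cells, had -0.78 in the 3 h control and -0.87 at the low dose, but -4.79 at the high dose and -4.67 in the 48 h control. Tyrobp, an adaptor of myeloid cells, was at -2.75 and -3.52 on the first pair of arrays and not well above background on the other pair. Against the 3 h control most markers thus lay on the same side as the interferon-induced genes. Against the 48 h control the sides differed, with a median of 0.43 for 8 measured markers and -0.47 for the interferon-induced genes. The part of the markers in the interferon result was not tested. Ctss differed by 3.79 from the 48 h control and by -0.10 from the 3 h control. In bulk RNA, fewer cells of a type and less RNA per cell cannot be told apart. The neural crest genes S100b, Tfap2a and Sox9 were measured and differed by 0.01, 0.08 and -0.02. Epcam, Cdh1, Cdh5, Tyrp1 and Dct, markers of epithelial, endothelial and pigment cells, were not well above background on either array. Other markers of these cells were measured, 2 of 6 epithelial, 3 of 6 endothelial and 4 of 7 melanocyte markers, with 0 at 2-fold.

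Genes of cholesterol and fatty acid synthesis had a median of -0.28 over 30 measured members (-0.29 against the 48 h control). At 2-fold there were 0 in either direction, and 5 were above 0. The shares over all measured genes were 0.761% higher and 0.583% lower, so 0 is near them in a list of this size. SREBP proteins control these enzymes, SREBP2 mainly those of cholesterol. Idi1, Msmo1 and Fdft1, 3 enzymes of cholesterol synthesis, were at -1.0, just short of 2-fold, -0.83 and -0.82, and Stard4, a sterol transport protein, was at -0.62. Idi1 had 1.43 in the 3 h control, 0.43 at the low dose, 0.47 at the high dose, 1.51 in the 48 h control and 1.47 at the 48 h high dose, so the 3 h doxycycline arrays were alike and lower than the rest. Among 17 measured clock genes 0 reached 2-fold and the median was -0.03. The clock output genes Ciart, Bhlhe41 and Dbp were at -1.0, -0.88 and -0.66.

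The genes that were lowest against both controls formed no group by function, and several were low on the low-dose array alone. Krt2, a keratin, had -2.35 in the 3 h control, -4.66 at the low dose, -2.22 at the high dose, -2.41 in the 48 h control and -1.83 at the 48 h high dose. The other 4 arrays were alike. Gmppb, an enzyme of GDP-mannose synthesis, had 1.83, 0.27, 2.02, 1.46 and 2.75, and Tstd2 had 2.34, 0.67, 2.16, 2.26 and 2.34 in the same order. Zfp646, a zinc finger gene, and Hrh1, a histamine receptor gene, showed that pattern at -1.75 and -1.62. With normexp background correction Krt2 and Hrh1 fell short of 2-fold, at -0.93 and -0.51, as did Zfp646 at -0.98 with its probes averaged. For Dtd2, a tRNA-editing enzyme at -1.84, the other measured probes stood at -0.43 and -0.29, and for Tstd2 and Zfp646 at -0.10 and -0.20. By contrast Pigl, of GPI anchor synthesis, was low at both doses, at -4.13 and -4.56 against -2.01 in the 3 h control and -3.13 in the 48 h control. Rcor2, a corepressor, and Kbtbd11 were at -1.31 and -1.36 and likewise low at both doses. Cdkn3, a phosphatase of cyclin-dependent kinases, was at -1.5 with a level of -5.41 at the low dose, near the dim end, and at -0.27 with normexp.

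Some of the largest differences rested on the 3 h control array. Nrxn3, a synaptic adhesion gene, had -0.19 there and between -5.00 and -4.49 on the other 4 arrays. Its difference of -4.49 from the 3 h control became 0.13 against the 48 h control. Pold3, a DNA polymerase subunit gene, had -2.14 on the 3 h control array against 1.81 to 2.15 elsewhere, and its 3.95 became -0.06. In all 58 of the 189 called genes had the opposite sign or a difference under 0.5 against the 48 h control, among them Mpp4, Kcnab1, Dpf1, Gm4841, Klk11 and Spdl1 downward and Purb upward (2.64 and 0.40). A second Mpp4 probe was at 0.19. Genes measured on 1 array only, which give bounds, were divided in this respect. Of 73 lower bounds past 2-fold, 57 genes were below background in the 48 h control too, including the 5 largest, D330041H03Rik, Cts8, Olfr640, Lgi1 and Olfr329, at least 71.1-fold to 32.2-fold lower. Of 26 higher bounds, 11 genes were above background in the 48 h control and 15 were below it. The largest, Ivd, a leucine catabolism enzyme, was at least 153-fold higher than in the 3 h control, yet its level of 2.08 was near the 2.23 of the 48 h control. Rdh19, Pmfbp1 and Olfr1193 were at least 13.1-fold, 6.53-fold and 4.96-fold higher, and these did not rest on the 3 h control array. Their low-dose levels were also 3.17, 3.82 and 4.75 above those in the 48 h control, where Pmfbp1 and Olfr1193 were below background.

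The remaining lists had at most 1 member at 2-fold and medians near 0. These were the cyclin D and kinase inhibitor list (Pmaip1, a p53 target that promotes cell death, at 1.07), hypoxia and glycolysis (Pdk1 at -1.32), and, with 0 members, Kruppel-like factors, ATF4 targets, the respiratory chain, glutathione and NRF2 genes, and CREB relatives. Their medians lay between -0.09 and 0.03, and over all measured genes 0.761% were higher and 0.583% lower than the 3 h control. Glutathione and NRF2 genes were the clearest case of dependence on the reference, with 11 of 24 lower and a median of -0.95 against the 48 h control, which was bright in these genes. Of all genes measured against that control, 3.28% were lower.

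The motifs printed above were counted over all promoters. RefSeq promoters were found for 34 of the 57 genes higher than both controls, 41 promoters in all, and for 11192 measured genes with 14235. The full CRE lay in 4.88% of the former and 2.44% of the latter, the half-site in 26.8% and 24.9%, the AP-1 site in 7.32% and 4.73% and the CArG box in 7.32% and 1.24%. With 41 promoters these shares rest on few matches. Genes lower than both controls, with 26 promoters, had 0%, 11.5%, 11.5% and 0% in the same order, so their AP-1 share was above that of the higher genes. Over all genes higher than the 3 h control, 97 promoters, the shares were 3.09%, 16.5%, 5.15% and 5.15% in that order, so the half-site was below its share over measured genes. Shares in the lists lay on both sides of those over measured genes. The half-site lay in 68.3% of 41 promoters of early response genes and 51.2% of 43 of CREB targets, but in 24.1% of 29 of the ERK list, 23.1% of 26 of lipid synthesis, 19.4% of 36 of interferon-induced genes and 17.4% of 23 of TGF-beta targets. The AP-1 site lay in 2.44% of promoters of early response genes, 2.33% of CREB targets and 0% of TGF-beta targets. Its share was 6.90% in the ERK list, 7.69% in lipid synthesis, 12.5% in contractile and 19.4% in interferon-induced genes. The CArG box lay in 20.8% of 24 promoters of contractile genes, among them Vcl shown above, and in 0% for the CREB, TGF-beta, interferon and lipid synthesis lists. The interferon response core lay in 41.7% of 36 promoters of interferon-induced genes against 2.56% over measured genes. A match is a description of the letters and not of binding, and sites farther from the start were not searched.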

How the data were processed

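Total RNA was labelled with Cy3 and hybridised to 1-colour Agilent arrays, per the labels' protocols. The deposited scanner files hold spot intensity on a linear scale, background-subtracted and detrended within each array by Agilent Feature Extraction 10.7.3.1, per the submitters' processing notes and the file headers, and not scaled between arrays. Outside the controls an array carried 59305 spots of 55681 probes, of which 55.5% to 60.0% were well above background per array. On the control, low-dose and high-dose arrays of 3 h the 75th percentile lay at 725, 588 and 556, and on those of 48 h, control first, at 649 and 420. No spot was saturated (0 on each array). The deposited value table held the same intensity, unlogged and uncentred, within 0.001 on the log2 scale for 99.99% of values, with column medians of 38.3, 32.5, 31.9, 37.7 and 23.9 in that order.

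From these, log2 of the processed signal minus each array's 75th percentile over all spots outside the controls was computed (Python 3.11.15, numpy 2.4.6, pandas 2.3.3). Spots marked as outliers (111 to 146 per array) were left out, and repeated spots were averaged per probe. Probes counted as above background with a share of 0.5 or more of their spots marked so, and 17 probes had no value on some array. Gene names came from unversioned accessions in the RefSeq table of GRCm38.p6. This gave 26413 probes 1 symbol, 0 several and 29268 none. The probe with the highest mean over the 5 arrays stood for its gene. For a bound, the dim side was set to the lowest above-background signal of that array or, if higher, the probe's own signal. Summed marker levels are the log2 of summed linear values.

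The genes named were Fos, Egr1 and Plaur, the 15 highest and 15 lowest against both controls, the 10 largest whose sign was lost or whose difference was under 0.5 against the 48 h control, the 5 largest bounds in each direction, and called or else leading members of 23 lists. The comparison, the lists and the rule were chosen with earlier results of these data known, so no list is independent evidence. Some further genes are named to complete a family or list. Results of some genes are not reported here, and the lists are counted without them. Alternatives covered the reference array, scaling, background correction (limma 3.58.1 in R 4.3.3), filters, the choice of probe and the threshold. Whether the arrays come from separate cultures is not stated.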

Additional observations from a re-analysis of the deposited data

Results flagged for a closer look

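Probes without a gene symbol lay outside the comparisons above. Of 12084 such probes measured on both 3 h arrays, 63 were higher and 101 lower at 2-fold, or 1.36%, and 23 and 16 were so against both controls. The 4 most extreme were signals above the level of both controls, or below it. Probe A_30_P01029906 was at 3.33, with levels of -0.53 in the 3 h control, 2.80 at the low dose, -0.27 at the high dose, -0.50 in the 48 h control and -0.52 at the 48 h high dose. Probe A_30_P01024501 was at 3.1, and it too was high on the low-dose array alone (-1.17, with the other arrays between -4.27 and -3.44). Probe A_30_P01032592 was at -3.05 and probe A_30_P01018760 at -6.32, and both were low on the low-dose array alone. Their levels there were -4.49 and -5.28, with the other arrays between -1.74 and -1.38 and between 1.03 and 1.40. With 1 array per group, no group had enough samples to look for an array far from its own group.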

How the results depend on the processing

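No difference has a replicate check, so no array could be left out and no p-value is given. No paired analysis was possible because each group has 1 array and the labels carry no replicate numbers. The planned normexp correction on mean spot signals was not run, since these files give spot medians, and the version on medians was chosen after seeing the data. With the 48 h control as the reference, 298 genes were higher and 470 lower, in place of 107 and 82. Against it the differences of Nrxn3 (0.13), Pold3 (-0.058), Gm4841 (0.37), Dpf1 (0.14), Klk11 (0.61), Spdl1 (0.34) and Iigp1 (0.23) turned their sign. Against the mean of both controls 162 genes were lower. Without the filter on dim probes 481 were higher and 336 lower, and 225 and 127 against both controls. At 1.5-fold 466 were higher and 354 lower, and at 3-fold 30 and 28. With normexp 61 were higher and 35 lower, and 10 were lower against both controls. The cause of these shifts was not tested, other than that a lower threshold and the missing filter admit more genes by construction. Higher genes made up 56.6% of those called, but 46.8% after centring each array on its median (89 higher, 101 lower, with the median of all genes at -0.06), 51.3% after quantile normalisation, 63.5% with normexp and 38.8% against the 48 h control. The 65 genes past 2-fold that the rule for named genes chose kept their direction under every alternative that kept the 3 h control as reference, and 47 of them stayed past 2-fold under all of these. The median of the contractile list ran from 0.65 to 0.95 and that of the interferon list from -0.59 to -0.41 over all alternatives. With normexp, Cxcl5 (-0.78), Pdk1 (-0.95), Dusp4 (0.72), Epgn (0.56), Pmaip1 (0.75) and Fbln2 (0.91) were among those short of 2-fold. Signal over background limits dim genes, such as Cdkn3.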

Other observations

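The 3 h control and low-dose arrays shared high levels of several genes that were low on the 3 h high-dose and 48 h control arrays. Chosen after their values were seen, these include Ptx3, a secreted pattern recognition protein, with -1.99 in the 3 h control and -1.16 at the low dose against -4.48 at the high dose and -4.01 in the 48 h control. Nrn1, which encodes neuritin, had -1.26 and -0.64 against -4.03 and -4.18 in that order. Ccnd1, cyclin D1, had -2.34 and -2.42 against -4.77 and -4.50. Ctss and Tyrobp followed the same order. The low-dose differences of these genes from the 3 h control were 0.84, 0.62 and -0.08 for Ptx3, Nrn1 and Ccnd1, and from the 48 h control 2.86, 3.54 and 2.08.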
